A study of Mus musculus with 6 samples.

Results

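The genes described here are 33 genes that make, take up, move, store and export cholesterol, measured by RNA-seq in mouse granulosa cells (GCs), the somatic cells that line the ovarian follicle. They were chosen by name, and all 33 names were found among the 54532 genes of the table. The set holds 17 enzymes of synthesis, 5 genes that control it, 6 genes of uptake and handling inside the cell, 2 genes of storage as cholesteryl ester, and 3 genes of export. The question was how the sterol supply of GCs stood 6 h after cyclophosphamide (CTX), an alkylating anticancer drug.

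ICR female mice aged 3 weeks received 5 IU of PMSG, a gonadotropin that drives follicle growth. After 22 h they were injected intraperitoneally with PBS or with CTX at 120 mg/kg, and the GCs were isolated after a further 6 h. There were 3 samples per group, each a pool of GCs from 3 mice. All samples thus came from gonadotropin-primed immature mice.

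Cholesterol is built from acetyl-CoA by way of mevalonate, isoprenyl diphosphates, squalene and lanosterol. The transcription factor SREBP2 drives most of these enzymes. SCAP escorts SREBP2 out of the endoplasmic reticulum when sterols are low, and the INSIG proteins hold SCAP back when sterols are high. GCs also take up cholesterol from lipoproteins, in part through SCARB1, the receptor for high-density lipoprotein. They spend it on steroid hormones, keep the excess as esters made by SOAT1, or export it through ABCA1 and ABCG1 to carriers such as APOE.

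Gene positions are whole gene spans on GRCm38. Levels are in FPKM, fragments per kilobase of gene scaled to sequencing depth, so they are corrected for gene length. The reads behind them came to between 16005869 and 17790353 per PBS sample and between 17727770 and 18455011 per CTX sample. At that depth, 3 reads on a gene of 1 kb gave 0.164 to 0.185 FPKM. CTX replicate 2 stood apart from the other samples over all genes, at 74.7 on the first principal component (46.8% of the variance) against −26.6 to 13.2 for the others. All 9 granulosa markers were expressed in every sample, and they summed to 11470 to 12680 FPKM in PBS samples and 10280 to 10940 in CTX samples, a sum made up mostly of *Inha*. For 7 of the 9 the mean was lower after CTX. Markers of theca, leukocytes, endothelium, oocyte and stroma each summed to at most 85.8 FPKM in any sample. In bulk RNA, fewer cells of a type and less RNA per cell cannot be told apart.

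Most of the sterol genes had lower mean levels after CTX, but the CTX samples differed widely and no member passed the test. A lower estimate was found for 31 of the 33 genes, against 51.4% of the 14463 genes tested, and the exceptions were *Apoe* and *Abcg1*. Without CTX replicate 2, 27 of the 33 were lower, against 51.1% of all genes tested. The estimates of *Pmvk*, *Insig1*, *Npc2* and *Lipe* then turned positive. The median log2 fold change was −0.49 over the 33 genes and −0.01 over all genes tested. It was −0.65 for synthesis, −0.42 for control, −0.27 for uptake and handling, −0.22 for storage and 0.22 for export. Fold changes are CTX minus PBS on the scale of log2(FPKM + 0.1), which understates the change of genes of low level.

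The comparison used limma on all genes with a mean of at least 0.5 FPKM, which kept all 33 members. At a Benjamini-Hochberg adjusted p below 0.05, 0 members were higher and 0 were lower, against 1.4% and 0.36% of all genes tested. The adjusted p of limma over the members ran from 0.118 (*Apoe*) to 1. At an unadjusted p below 0.05, limma found 6 members lower (*Sqle*, *Lss*, *Msmo1*, *Ebp*, *Srebf1* and *Soat1*; background 9.1%) and 1 higher (*Apoe*; background 10.5%). limma's voom on the rebuilt reads also called 0 members after adjustment, with 9 lower (background 9.69%) and 1 higher (background 10.7%) at an unadjusted p below 0.05.

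Every CTX sample lay below every PBS sample for 9 members, *Mvk*, *Fdps*, *Sqle*, *Lss*, *Tm7sf2*, *Msmo1*, *Ebp*, *Srebf1* and *Soat1*. That is 9 of 33, where 14.1% of all genes tested did so. For 1 member, *Apoe*, the lowest CTX sample was higher than the highest PBS sample, where 15.0% of all genes did so.

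The 3 CTX samples stood at different distances from PBS in the same order for most members. CTX replicate 1 was above replicate 3 and replicate 3 above replicate 2 in 29 of the 33 members, an order that 26.1% of all genes tested had. It held for 17 of 17 synthesis genes and 5 of 5 control genes, and for 0 of the 3 export genes. CTX replicate 2 was below every PBS sample for 29 members (background 38.3%), CTX replicate 3 for 27 (background 35.9%) and CTX replicate 1 for 9 (background 30.9%). In CTX replicate 2, 19 of 33 members were below 50% of their PBS mean, against 8.84% of all genes.

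As a median over the 33 genes, CTX replicates 1, 2 and 3 stood at 103%, 46.1% and 76.0% of the PBS mean. The PBS samples were close to each other, with a median coefficient of variation of 4.31% over the members, and the CTX samples were not, with 37.5%. Over all genes tested the medians were 7.35% and 12.9%. The spread was wider in CTX than in PBS for 31 of the 33 members, and for 10001 of all 14463 genes tested.

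**Figure D1:**
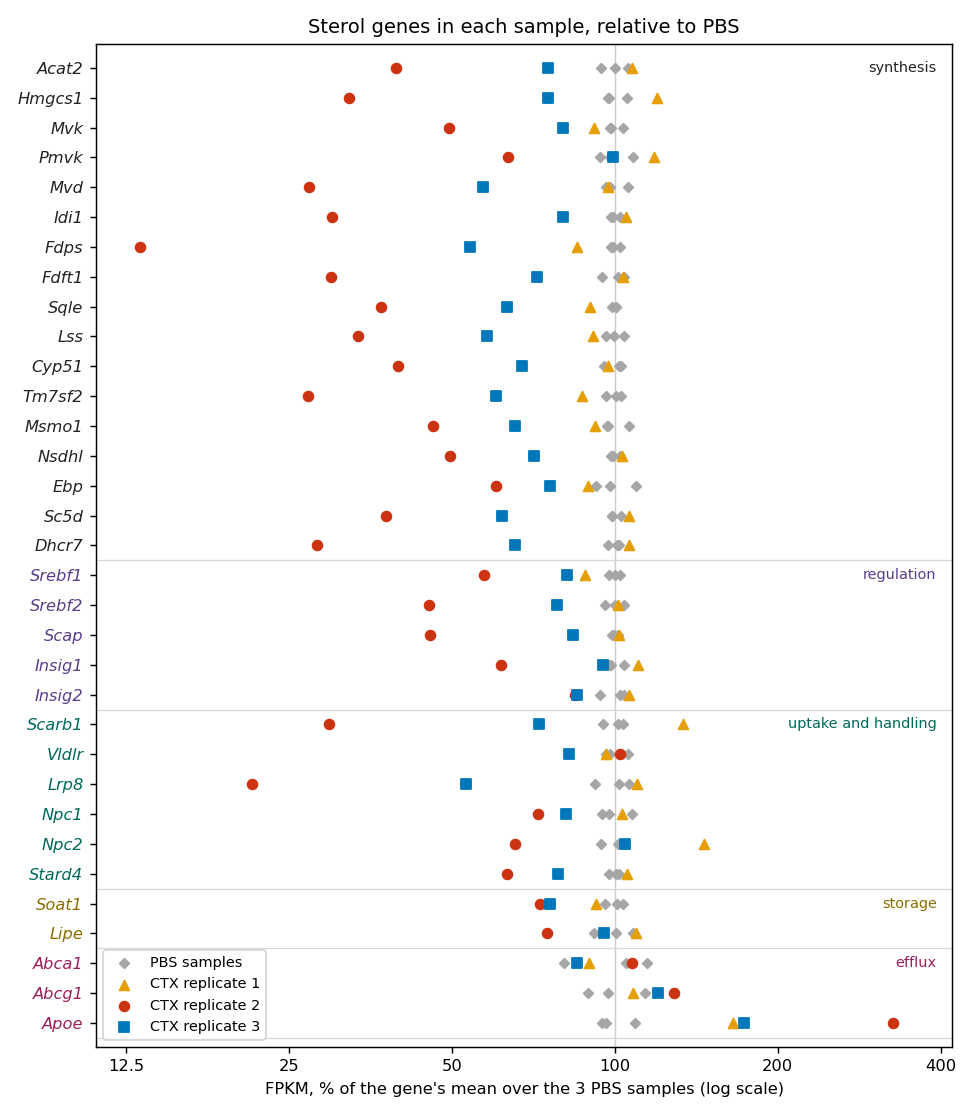
FPKM of each of the 33 sterol genes in each sample, as a percentage of the gene's mean over the 3 PBS samples (log axis); grey diamonds are PBS samples and coloured symbols are CTX replicates 1 to 3. For 29 genes CTX replicate 2 lies below all PBS samples, CTX replicate 1 ranges from 85.2% to 165% (median 103%), and *Apoe* is the gene whose 3 CTX samples all lie to the right of its PBS samples.

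The difference in medians was largest for the 17 synthesis enzymes. Their levels summed to 418, 417 and 431 FPKM in the PBS samples and to 431, 162 and 298 FPKM in CTX replicates 1, 2 and 3. In this sum the first CTX replicate was within the range of the PBS samples and the others were below it. All 17 had lower mean log2 levels after CTX, from −0.14 for *Pmvk* (phosphomevalonate kinase) to −1.27 for *Fdps*. Without CTX replicate 2, *Pmvk* had a log2 fold change of 0.12. CTX replicate 2 was below every PBS sample for 17 of 17, CTX replicate 3 for 16 of 17 and CTX replicate 1 for 7 of 17, with medians of 36.9%, 67.4% and 97.3% of the PBS mean.

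The 7 enzymes that act before squalene and the 10 that act from squalene synthesis on did not stand far apart. The median log2 fold change was −0.59 for the earlier enzymes and −0.69 for the later ones. In CTX replicate 2 the medians were 32.3% and 37.3% of the PBS mean, and in CTX replicate 3 they were 75.3% and 65.5%. No test was made between the groups of enzymes.

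*Hmgcs1* (ENSMUSG00000093930, chr13:119690379-119708260, plus strand) encodes the cytosolic HMG-CoA synthase that starts the committed part of the pathway. It had 51.7, 47.8 and 47.7 FPKM in the PBS samples and 58.7, 15.9 and 36.9 FPKM in CTX replicates 1, 2 and 3. The highest of the 6 samples was CTX replicate 1 and the lowest CTX replicate 2, so the groups overlapped. On the log2 scale, CTX minus PBS was −0.59 (SE 0.44, limma adjusted p = 0.473), and it was −0.07 without CTX replicate 2.

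*Fdps* (ENSMUSG00000059743, chr3:89093588-89101959, minus strand) makes farnesyl diphosphate, from which sterols and prenylated proteins branch. It had 4.19, 4.34 and 4.21 FPKM in PBS and 3.62, 0.563 and 2.29 FPKM in CTX replicates 1, 2 and 3. All CTX samples were below PBS, and CTX replicate 2 stood at 13.2% of the PBS mean. The log2 fold change of −1.27 was the lowest estimate among the members, with SE 0.60 and limma adjusted p = 0.295, and it was −0.54 without CTX replicate 2. It rests on 42 to 335 reads per sample, and the gene shares its span with *Gm22935* on the same strand, listed at a mean of 5.17 FPKM.

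*Sqle* (ENSMUSG00000022351, chr15:59315077-59331192, plus strand) encodes squalene epoxidase, a control point of the later pathway. It had 26.7, 26.7 and 26.2 FPKM in PBS and 23.8, 9.80 and 16.7 FPKM in CTX replicates 1, 2 and 3. The groups did not overlap, and the PBS samples varied by only 1.07% (coefficient of variation). The estimated log2 fold change was −0.75 (SE 0.30, limma adjusted p = 0.244), and −0.41 without CTX replicate 2.

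*Cyp51* (ENSMUSG00000001467, chr5:4081145-4104746, minus strand) removes a methyl group from lanosterol. It had 33.5, 33.7 and 31.4 FPKM in PBS and 32.0, 13.1 and 22.1 FPKM in CTX replicates 1, 2 and 3. CTX replicate 1 lay within the PBS range and the other CTX samples below it. The log2 fold change was −0.64 (SE 0.30, limma adjusted p = 0.291), and −0.30 without CTX replicate 2.

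*Tm7sf2* (ENSMUSG00000024799, chr19:6062821-6077197, minus strand), a sterol reductase that acts after *Cyp51*, had 5.54, 5.66 and 5.31 FPKM in PBS. It had 4.78, 1.49 and 3.32 FPKM in CTX replicates 1, 2 and 3, all below PBS. limma gave a log2 fold change of −0.91 (SE 0.39, limma adjusted p = 0.263), and −0.45 without CTX replicate 2. Its span overlaps *Vps51* on the same strand, listed at a mean of 0.686 FPKM.

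The other synthesis enzymes lay in the same range. Among the earlier ones, *Acat2* (acetoacetyl-CoA formation), *Mvk* (mevalonate kinase), *Mvd* (mevalonate decarboxylase) and *Idi1* (isopentenyl diphosphate isomerase) had log2 fold changes of −0.55, −0.49, −0.90 and −0.65. The squalene synthase gene *Fdft1* had −0.72, and *Lss*, which closes the sterol rings, had −0.81. The demethylation genes *Msmo1* and *Nsdhl* had −0.61 and −0.48. The genes of the last steps, *Ebp*, *Sc5d* and *Dhcr7*, had log2 fold changes of −0.42, −0.67 and −0.78. Limma's adjusted p was at least 0.208 for each of these 11 genes. *Acat2* has a close copy, *Acat3*, with which it may share reads. *Fdft1* and *Cyp51* overlap expressed genes on the other strand (*Ctsb* with a mean of 71.9 FPKM and *Akap9* with 3.46 FPKM), and the sources used here do not say whether counting kept the strands apart.

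The stretches before the start sites of 3 synthesis genes and of *Apoe* are printed as examples. *Mvk* and *Mvd* are not among the members given in full. Any link between these sequences and the levels in the samples was not tested. The sequences are from RefSeq (GRCm38.p6), each ends at the base before the start site, and capitals mark the motifs searched. The motifs were the sterol response letters TCACNCCAC (N is any base), the CCAAT box (ATTGG when read on the other strand) and the E-box CACGTG, on both strands.
Hmgcs1, chr13:119690161-119690350, plus strand: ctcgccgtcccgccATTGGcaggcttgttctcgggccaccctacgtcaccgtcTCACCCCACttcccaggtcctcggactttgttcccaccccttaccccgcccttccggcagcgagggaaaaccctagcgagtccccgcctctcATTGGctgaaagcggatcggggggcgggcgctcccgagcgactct
Mvk, chr5:114444079-114444268, plus strand: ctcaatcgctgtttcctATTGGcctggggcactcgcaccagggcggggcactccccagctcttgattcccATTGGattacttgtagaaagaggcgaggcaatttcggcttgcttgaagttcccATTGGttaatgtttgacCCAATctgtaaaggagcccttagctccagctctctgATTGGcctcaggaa
Mvd, chr8:122443423-122443542, minus strand: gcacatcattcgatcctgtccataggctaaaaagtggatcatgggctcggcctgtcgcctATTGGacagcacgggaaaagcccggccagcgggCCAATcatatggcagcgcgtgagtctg
Apoe, chr7:19699189-19699308, minus strand: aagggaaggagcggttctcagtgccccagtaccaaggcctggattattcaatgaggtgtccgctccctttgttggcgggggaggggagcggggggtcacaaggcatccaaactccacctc

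The *Hmgcs1* stretch holds 1 sterol response match and 2 CCAAT boxes, *Mvk* holds 5 CCAAT boxes, *Mvd* holds 2, and the *Apoe* stretch holds no match. Of the 33 members, 26 were matched to the RefSeq promoters, and the 250 bases before each start were searched. CCAAT was found for 20 of the 26 genes and for 13 of the 14 matched synthesis genes, and for 37.5% of all 27025 genes with a promoter. Among tested genes with a promoter the share was 40.6%. The sterol response letters were found for 1 of the 26, *Hmgcs1*, for 1.22% of all genes with a promoter and for 1.35% of tested ones. The E-box was found for 6 of 26 genes (*Abca1*, *Dhcr7*, *Insig1*, *Lipe*, *Sc5d* and *Scap*) and for 6.86% of all genes. None of the 3 motifs contains another, and a match is a description of sequence and not of binding.

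**Figure D2:**
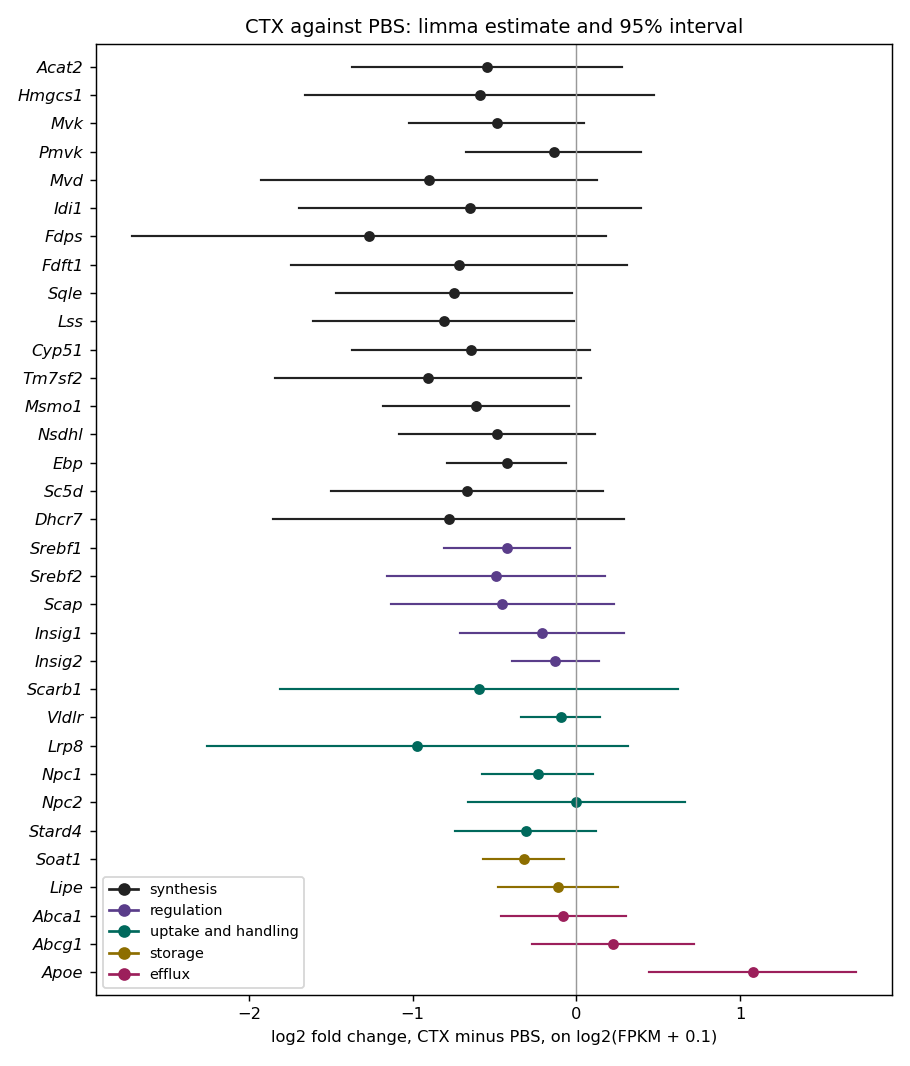
limma estimates of the log2 fold change (CTX minus PBS, log2(FPKM + 0.1)) for the 33 genes, coloured by role, with 95% intervals as lines. The estimates run from −1.27 (*Fdps*) to 1.08 (*Apoe*), and the intervals that stay below 0 are those of the 6 genes with an unadjusted p below 0.05.

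The 5 genes that control the pathway also had lower means after CTX, with CTX replicate 2 lowest for each. *Srebf2* (ENSMUSG00000022463, chr15:82147181-82205379, plus strand) encodes SREBP2. It had 41.5, 40.0 and 38.3 FPKM in PBS and 40.4, 18.1 and 31.3 FPKM in CTX replicates 1, 2 and 3. CTX replicate 1 was level with PBS and the others were below it. On the log2 scale, CTX minus PBS was −0.49 (SE 0.28, limma adjusted p = 0.362), and −0.17 without CTX replicate 2. *Scap*, the escort protein and the control gene with the highest level here, had a mean of 115 FPKM in PBS and 88.6 FPKM in CTX, a log2 fold change of −0.45.

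*Srebf1*, which encodes the SREBP1 proteins that favour fatty acid genes, had 33.8, 32.2 and 33.1 FPKM in PBS and 29.1, 19.0 and 26.9 FPKM in CTX replicates 1, 2 and 3. Its groups did not overlap, with a log2 fold change of −0.42 (limma adjusted p = 0.226). It overlaps *Rai1* on the other strand, which had a mean of 15.4 FPKM.

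*Insig1* (ENSMUSG00000045294, chr5:28071363-28078662, plus strand), the sterol-sensitive brake and itself a target of SREBP2, differed less. It had 50.2, 47.0 and 47.4 FPKM in PBS and 53.2, 29.7 and 45.9 FPKM in CTX replicates 1, 2 and 3. CTX replicate 1 was the highest of the 6 samples. The estimated log2 fold change was −0.21 (SE 0.21, limma adjusted p = 0.589), and it was 0.036 without CTX replicate 2. *Insig2* had a log2 fold change of −0.13 with a 95% interval from −0.39 to 0.14.

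Of the 6 genes of uptake and handling, 5 had their CTX samples in the order of replicates 1, 3 and 2, and *Vldlr* did not. *Scarb1* (ENSMUSG00000037936, chr5:125277087-125341094, minus strand) had 91.0, 85.3 and 92.7 FPKM in PBS, among the highest levels of the set. It had 120, 26.6 and 65.1 FPKM in CTX replicates 1, 2 and 3. CTX samples lay on both sides of PBS, at 134%, 29.7% and 72.6% of the PBS mean. The log2 fold change was −0.60 (SE 0.50, limma adjusted p = 0.525), and −0.02 without CTX replicate 2.

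*Lrp8* (ENSMUSG00000028613, chr4:107802261-107876840, plus strand), a receptor of the low-density lipoprotein receptor family that binds APOE and reelin, had 7.48, 7.80 and 6.74 FPKM in PBS. It had 8.06, 1.57 and 3.89 FPKM in CTX replicates 1, 2 and 3. CTX replicate 1 was the highest of the 6 samples, and CTX replicate 2 stood at 21.3% of the PBS mean. limma gave a log2 fold change of −0.97 (SE 0.53, limma adjusted p = 0.35), and −0.38 without CTX replicate 2. The related receptor gene *Vldlr* differed little, at −0.10 with a 95% interval from −0.34 to 0.14, and CTX replicate 2 was at 102% of its PBS mean.

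*Stard4* (ENSMUSG00000024378), which carries cholesterol through the cytosol, had 11.9, 11.4 and 11.7 FPKM in PBS and 12.3, 7.38 and 9.18 FPKM in CTX replicates 1, 2 and 3. Only CTX replicate 1 was above PBS, and the others were below it. On the log2 scale, CTX minus PBS was −0.31 (SE 0.18, limma adjusted p = 0.372), and −0.14 without CTX replicate 2. *Npc1* and *Npc2* release cholesterol from lysosomes. *Npc1* had a log2 fold change of −0.24 and overlaps *Rmc1* on the other strand, which had a mean of 3.67 FPKM, and *Npc2* had one of 0.00 with a 95% interval from −0.66 to 0.66. The *Npc2* samples were spread on both sides of PBS, at 146%, 65.3% and 104% of the PBS mean in CTX replicates 1, 2 and 3.

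**Figure D3:**
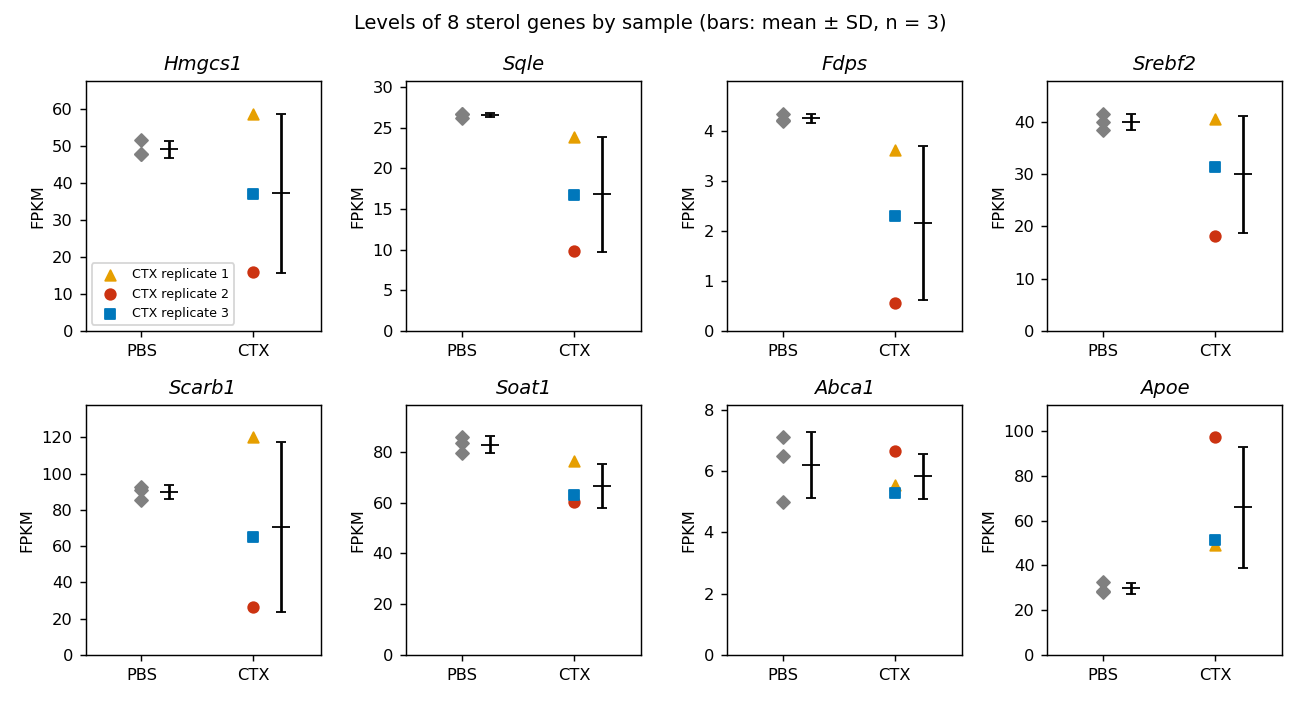
FPKM of 8 sterol genes in each sample, with PBS samples as grey diamonds, CTX replicates 1 to 3 as coloured symbols, and the mean ± SD (n = 3) beside each group; each axis starts at 0. *Sqle*, *Fdps*, *Soat1* and *Apoe* show no overlap between the groups, while CTX replicate 1 is above PBS for *Hmgcs1* and *Scarb1*.

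Of the storage genes, *Soat1* (ENSMUSG00000026600, chr1:156424525-156474331, minus strand) makes cholesteryl esters. It had 85.7, 83.6 and 79.4 FPKM in PBS and 76.5, 60.4 and 63.0 FPKM in CTX replicates 1, 2 and 3. All CTX samples were below all PBS samples, and they lay closer together than for the enzymes, at 72.8% to 92.3% of the PBS mean. The estimated log2 fold change was −0.32 (SE 0.10, limma adjusted p = 0.179). It passed the test when CTX replicate 1 was left out, with −0.43 and a limma adjusted p of 0.0479. In that fit 161 of all 14463 genes tested were called lower, against 52 with all samples.

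*Lipe* (ENSMUSG00000003123, chr7:25379527-25398710, minus strand), the hormone-sensitive lipase that splits cholesteryl esters, differed little. It had 5.06, 4.29 and 4.72 FPKM in PBS and 5.13, 3.51 and 4.48 FPKM in CTX replicates 1, 2 and 3. The groups overlapped. The log2 fold change was −0.11 (SE 0.15, limma adjusted p = 0.694), with a 95% interval from −0.48 to 0.26.

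Among the export genes, 1 was higher in every CTX sample. *Apoe* (ENSMUSG00000002985, chr7:19696109-19699188, minus strand) encodes the lipoprotein that carries exported cholesterol. It had 28.6, 28.1 and 32.5 FPKM in PBS and 49.1, 97.3 and 51.5 FPKM in CTX replicates 1, 2 and 3. All CTX samples were above all PBS samples, at 165%, 327% and 173% of the PBS mean, and the sample with the lowest enzyme levels, CTX replicate 2, was the highest for *Apoe*. limma gave a log2 fold change of 1.08 (SE 0.26, limma adjusted p = 0.118), with a 95% interval from 0.44 to 1.71. Without CTX replicate 2 the log2 fold change was smaller, 0.76, and passed the test with a limma adjusted p of 0.00864. In that fit 359 of all 14463 genes tested were called higher, against 202 with all samples.

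*Abca1* (ENSMUSG00000015243, chr4:53030787-53159895, minus strand), the exporter to lipid-poor apolipoproteins, had 7.10, 6.50 and 4.99 FPKM in PBS and 5.54, 6.66 and 5.27 FPKM in CTX replicates 1, 2 and 3. The groups overlapped throughout. On the log2 scale, CTX minus PBS was −0.08 (SE 0.16, limma adjusted p = 0.795), with a 95% interval from −0.46 to 0.30. *Abcg1* (ENSMUSG00000024030, chr17:31057698-31115777, plus strand), the exporter to high-density lipoprotein, had 0.745, 0.872 and 0.683 FPKM in PBS and 0.828, 0.984 and 0.920 FPKM in CTX replicates 1, 2 and 3. Its groups overlapped, with a log2 fold change of 0.22 (SE 0.21, limma adjusted p = 0.557) and a 95% interval from −0.27 to 0.72. It was the member of lowest level, with 45 to 71 reads per sample.

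Macrophages also make APOE, so leukocyte markers were examined beside it. The 10 macrophage and leukocyte markers summed to 24.8 to 28.0 FPKM in PBS samples and to 41.0, 74.3 and 28.4 FPKM in CTX replicates 1, 2 and 3. Mean levels were higher after CTX for 7 of the 10, and 0 of the 8 tested passed limma's adjusted test. *Ptprc*, the common leukocyte gene, was near 0 in every sample, from 0.0640 to 0.0983 FPKM, and none of the 10 was at 0 in all samples. The largest part of the marker sum was *Lyz2*, with 13.1 to 14.3 FPKM in PBS and 22.9, 45.8 and 14.7 FPKM in CTX replicates 1, 2 and 3. In CTX replicate 3 the single markers lay on both sides of PBS, from 58.4% (*Fcer1g*) to 136% (*Tyrobp*) of the PBS mean. The part of leukocyte RNA in the *Apoe* level was not tested.

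**Figure D4:**
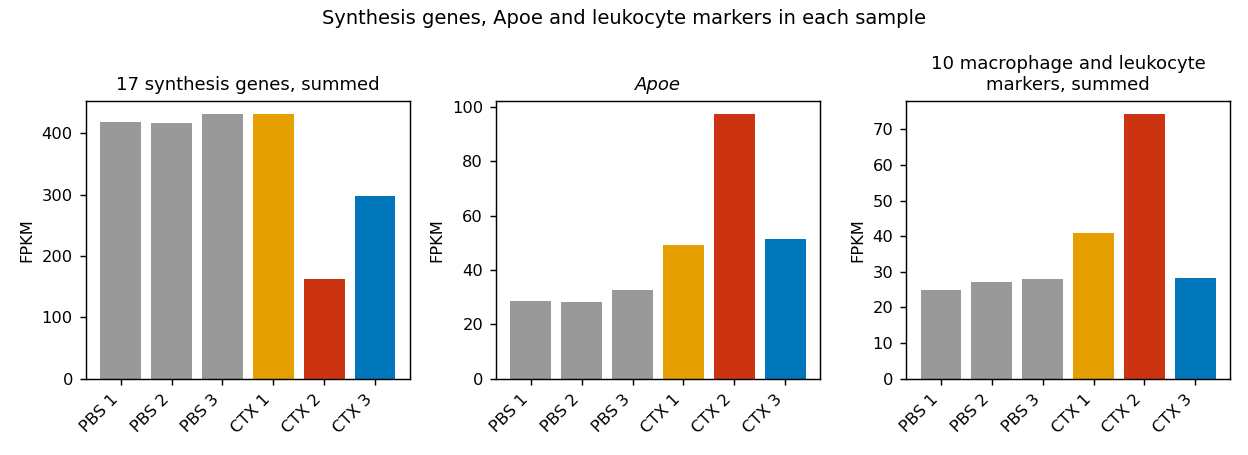
Bars, starting at 0, give the summed FPKM of the 17 synthesis genes, the FPKM of *Apoe*, and the summed FPKM of the 10 macrophage and leukocyte markers in each of the 6 samples. CTX replicate 2 has the lowest synthesis sum (162) and the highest *Apoe* level (97.3) and marker sum (74.3).

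Markers of other cells and of the granulosa state also differed in CTX replicate 2, in both directions. Of the granulosa markers, *Cyp19a1*, *Inhba*, *Foxl2* and *Fshr* stood there at 10.9%, 25.6%, 40.9% and 46.7% of the PBS mean, *Inha* at 95.6%, and *Amh* and *Amhr2* at 362% and 186%. The 5 theca markers summed to 43.1 to 46.9 FPKM in PBS and to 46.2, 26.6 and 29.6 FPKM in CTX replicates 1, 2 and 3. That lower sum came from *Cyp17a1*, at 3.82% of the PBS mean in CTX replicate 2. There *Aldh1a1*, *Ptch1* and *Insl3* stood at 219%, 181% and 240%, and these 3 of the 5 had higher means after CTX. *Insl3* rests on only 3 to 13 reads per sample, near the floor of 3 reads, so its percentage says little.

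The 5 stroma markers summed to 17.6 to 18.6 FPKM in PBS and to 36.3, 7.89 and 28.0 FPKM in CTX replicates 1, 2 and 3, the same order of CTX samples as for the enzymes. All 5 had higher mean FPKM after CTX, the measure used for the direction of all markers here. *Col1a1* stood at 29.8% of the PBS mean in CTX replicate 2, and its log2 estimate was −0.11. The 6 endothelial markers summed to 4.84 to 5.57 FPKM in PBS and to 4.18, 1.97 and 4.38 FPKM in CTX replicates 1, 2 and 3. Most of each sum was *Cdh5*, the only 1 of the 6 that was tested, with a log2 estimate of −0.82. Higher means were found for 4 of the 6, each with a mean below 0.5 FPKM, so their direction says little. The 7 oocyte markers summed to 35.1 to 74.2 FPKM in PBS and 48.2 to 85.8 FPKM in CTX, with higher means for all 7. Limma called 0 of the tested markers of any of these lists at an adjusted p below 0.05, and none of their genes was at 0 in all samples. The part of such shifts among cell types or follicle stages in the enzyme levels was not tested.

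Another 55 genes of sterol synthesis, control, transport, storage, export and use for hormones were listed, and 52 were tested. At a limma adjusted p below 0.05, 0 of the 52 were called in either direction. At an unadjusted p below 0.05, 5 were higher (9.62%) and 4 were lower (7.69%), close to the shares of all genes of 10.5% and 9.1%. Estimates were lower for 31 of the 52. The largest negative estimate was that of *Cyp11a1*, the enzyme that opens steroid hormone synthesis, with 564, 544 and 553 FPKM in PBS and 727, 14.4 and 486 FPKM in CTX replicates 1, 2 and 3. Its log2 fold change of −1.69 (SE 1.43, limma adjusted p = 0.526) became 0.10 without CTX replicate 2. The largest positive estimate was that of *Pltp*, a phospholipid transfer protein, with 0.482, 0.277 and 0.554 FPKM in PBS and 1.25, 1.54 and 0.697 FPKM in CTX replicates 1, 2 and 3. All its CTX samples were above PBS, with a log2 fold change of 1.21 (SE 0.38, limma adjusted p = 0.177) on 13 to 70 reads per sample.

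The count of called members depended on how the CTX samples were weighted. With limma's arrayWeights, which lets samples count unequally, 22 members were lower and 1 was higher (*Apoe*) at an adjusted p below 0.05. All genes tested then gave 20.4% lower and 19.4% higher. The 22 included 14 of 17 synthesis genes, 3 of 5 control genes and 4 of 6 genes of uptake and handling, and *Soat1*. CTX replicate 2 had the lowest weight, 0.163, and CTX replicate 3 the highest, 16.6, so this fit set CTX replicate 3 almost alone against PBS. Without CTX replicate 2 and with equal weights, 0 members were lower and 1 was higher (*Apoe*). In that fit 167 of all 14463 genes tested were lower and 359 were higher. The median log2 fold change over the 33 genes was then −0.18.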

How the data were processed

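RNA of GCs was sequenced in 6 samples, 3 PBS and 3 CTX, grouped by their labels. The authors deposited FPKM values per gene (GRCm38, listed by the submitters as mm10). The submitters' processing notes name CASAVA 1.8, fastp, HISAT2 2.0.5, featureCounts 1.5.0-p3 and DESeq2 1.20.0, and strandedness is not given in the sources used here. The deposited group means, fold changes and p-values of the authors' own comparison were not used. Gene length in the table is the union of a gene's exons, so levels of different genes compare only roughly.

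Multiplying FPKM by length gave whole multiples of 1 read for 100% of the values above 0, from which reads were rebuilt. log2(FPKM + 0.1) was compared with limma 3.58.1 (lmFit, eBayes with trend, two-sided) in R 4.3.3 over genes with a mean of at least 0.5 FPKM, with Benjamini-Hochberg adjustment over all 14463. The script was tested on simulated data in which both groups had the spread of the PBS samples. That test does not cover the wider spread of the CTX samples. Replicates differed beyond sampling noise. Reads of a pool are not independent molecules, so the floor of 3 reads covers counting error only. The labels do not say whether the replicates of a group were processed together, and p-values measure the spread between these pools. Same-numbered samples came from different mice, and their deviations from group means correlated at 0.0556, 0.0242 and 0.0058, so no block was fitted in the reported test.

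The members and lists were chosen with earlier results of these data known. Members given in full were 11 fixed by role, those called, and the 3 largest changes in each direction, of which 2 were positive. Other members are given in brief. Sample values of *Srebf1* and *Npc2* and the marker genes singled out were chosen after their values were seen. Alternatives were other pseudocounts (1 and 0.01), filters (none, and a mean of 5 FPKM), scalings and models, and each sample left out. SciPy 1.17.1, NumPy 2.4.6 and pandas 2.3.3 (Python 3.11.15) handled the tables, and matplotlib 3.10.9 drew the figures.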

Additional observations from a re-analysis of the deposited data

How the results depend on the processing

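Counts of 0 higher and 0 lower members were kept under other pseudocounts, filters and scalings, eBayes without trend, voom, the replicate block and the study's rule of an adjusted p below 0.05 and more than 2-fold. With the replicate block, limma called 50 genes higher and 3 lower over all genes. arrayWeights moved the members to 1 higher and 22 lower and the related genes to 22 called (9 of 52 higher and 13 lower, where all genes gave 19.4% and 20.4%). Leaving out each sample gave 0 to 1 member higher (*Apoe*, without CTX replicate 2) and 0 to 1 lower (*Soat1*, without CTX replicate 1). Of all 14463 genes tested, 359 were higher without CTX replicate 2 and 161 lower without CTX replicate 1. The reported fit gave 202 higher and 52 lower. The median log2 fold change then ran from −0.74 to −0.18 over the members and from −1.01 to −0.28 over the synthesis genes, with the smallest differences without CTX replicate 2. Among the members given in full, signs turned for *Abca1* (from −0.23 to 0.025, the latter without PBS replicate 1), *Insig1* (from −0.38 to 0.036) and *Lipe* (from −0.23 to 0.033), the last 2 without CTX replicate 2. Of the others, *Pmvk* turned to 0.12 and *Npc2* to 0.30 without CTX replicate 2, and *Npc2*, at 0.00, also turned without PBS replicate 1 or 3. Without CTX replicate 2, 26 of the 33 estimates were smaller by over 1.5 times. The same count was not made over all genes tested, so whether this is particular to the members is not known. The cause was not tested. The order of the CTX samples was counted after seeing the data. With 3 pools per group and a CTX spread as wide as this, differences of the sizes seen among the enzymes could not be separated from sample variation.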
